A study of Mus musculus with 10 samples.

Results

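This account covers the genes of fatty acid oxidation and ketogenesis in primary mouse hepatocytes depleted of the histone acetyltransferase KAT2B or of WDR5, a scaffold of complexes that methylate histones. Of 33 listed genes, 32 had an array feature that carries 1 gene symbol, out of 16401 genes with such a feature. They were split by role into 19 mitochondrial, 8 peroxisomal and 5 PPARA-responsive genes, and each was read from its feature with the highest mean. Acsl1 was not analysed here, because no feature carried its symbol alone. The cells came from male C57BL6/J mice of 10 weeks and were exposed to adenovirus at 2 to 4 plaque-forming units per cell for 72 h, so the control cells carry a virus and a hairpin too. The adenovirus encoded a short hairpin RNA against Kat2b (shKAT2B), one against Wdr5 (shWDR5) or a non-specific one (shNS), and the cells then received 100 nM glucagon or phosphate-buffered saline (PBS) for 90 min. Each library held the RNA of 3 pooled dishes. There were 2 libraries (A and B) of shKAT2B glucagon, 1 (A) of shKAT2B PBS, 2 of shWDR5 glucagon, 1 (A) of shWDR5 PBS, 2 of shNS glucagon and 2 of shNS PBS, 10 in all. Nothing in the labels says that A and B are separate animals, so the p-values reflect only how far these libraries differ. The labels name no further hairpin against either target, so an effect of depletion cannot be told apart from another effect of its hairpin.

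Hepatocytes burn fatty acids in mitochondria, where each turn of the spiral oxidises, hydrates, oxidises again and cleaves an acyl-CoA, and they turn much of the acetyl-CoA into ketone bodies during fasting. Peroxisomes shorten very long and branched chains by a parallel set of enzymes. The nuclear receptor PPARA drives many of these genes in the fasted liver, and glucagon is the hormone of that state.

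Each hairpin lowered its target. Kat2b stood at 6.60 to 6.93 in the shKAT2B libraries, against 9.40 to 9.42 in the shNS libraries (log2 intensity), and Wdr5 at 8.19 to 8.40 in the shWDR5 libraries, against 9.99 to 10.06 in the shNS libraries. Glucagon raised Nr4a1, an immediate target of cyclic AMP signalling, by 3.28 ± 0.15 and Ppargc1a, a coactivator of fasting genes, by 1.70 ± 0.07 on the log2 scale. Within the library sets described next, the Nr4a1 rise was 2.59 in shKAT2B, 3.37 in shWDR5 and 3.57 and 3.66 in shNS. Median intensity lay between 282.1 and 298.2 over the 10 libraries. What arm and treatment left over put shNS PBS A and the glucagon A libraries of the 3 arms in a first library set and the other 6 libraries in a second, along a component with 78 percent of the residual variance. The single PBS libraries of shKAT2B and shWDR5, though lettered A, fell in the second set, which holds 1 library of each group. Members tended to be lower in the second set than in the first, with 24 of 30 below 0 at a median of -0.16, against -0.07 for all genes tested. Of the 3 classes the PPARA-responsive genes stood furthest down, at a median of -0.43, and Bdh1 ran the other way at 0.81. The labels do not name these sets, so fits that include the set as a term, and differences inside a set, are given as well. Because the sets were drawn from the residuals of these same libraries, adjusted p-values from fits with that term may be too small.

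Of 15 measured hepatocyte markers, 13 passed the filter on low values. Their sum was carried by genes such as Alb, at 13.37 to 13.84, and Trf, at 13.67 to 13.99 (log2 intensity), while Asgr1, at 6.33 to 6.82, and Hpd, at 6.43 to 6.80, lay below the filter in every library. Markers of other liver cells were measured too. The summed level of 20 measured Kupffer cell and leukocyte markers was 13.40 to 14.28 in shKAT2B glucagon, 14.17 in shKAT2B PBS, 13.52 to 14.04 in shWDR5 glucagon, 14.00 in shWDR5 PBS, 13.20 to 13.92 in shNS glucagon and 13.21 to 13.78 in shNS PBS (log2 of summed intensity). It was 13.78 to 14.28 in the second library set and 13.20 to 13.52 in the first. No marker was listed at 0. Over the 18 of them that were tested the median difference was 0.43 for shKAT2B and 0.30 for shWDR5 over shNS, and that of 15 endothelial markers 0.30 and 0.27. Among the Kupffer cell and leukocyte markers limma called 0 in either arm, with 2 at an unadjusted p below 0.05 in shKAT2B and 0 in shWDR5, and with the library set as a term 12 were called higher in shKAT2B and 8 in shWDR5. The sum of 5 measured cholangiocyte markers was 11.45 to 12.14 in shKAT2B, 11.31 to 11.95 in shWDR5 and 11.78 to 12.28 in shNS libraries, and of the 3 tested Krt7 and Krt19 were called lower in shWDR5 (-0.46 ± 0.11 and -0.80 ± 0.21) and Krt7 in shKAT2B (-0.44 ± 0.11). The sum of 14 stellate cell and fibroblast markers was 12.93 to 13.33 in shKAT2B, 12.89 to 13.30 in shWDR5 and 12.88 to 13.32 in shNS libraries, with 1 of 12 called lower and 0 higher in each arm, and with the library set as a term 6 higher and 1 lower in shKAT2B and 3 higher and 1 lower in shWDR5. Summed hepatocyte markers were 15.56 to 15.67 in shKAT2B, 15.65 to 15.83 in shWDR5 and 15.76 to 15.99 in shNS libraries, with 7 of 13 called lower and 0 higher in shKAT2B and 3 lower and 1 higher in shWDR5. Of all genes tested, 6.66 percent were called higher and 8.95 percent lower in shKAT2B, and 4.69 and 6.17 percent in shWDR5. With the library set as a term these shares were 21.5 and 20.1 percent in shKAT2B and 18.8 and 18 percent in shWDR5. The part of the markers in the results on fatty acid oxidation was not tested. In RNA of whole cultures, fewer hepatocytes and less RNA per hepatocyte cannot be told apart.

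RNA of genes for particular steps of fatty acid oxidation was lower in each knockdown arm than in shNS. In the fit of arm and treatment alone, whose values stand below wherever no other fit is named, no member was called higher in either arm. In shWDR5 over shNS, 8 of the 30 members that passed the filter on low values fell and 0 rose, against 10.9 percent of all genes called (6.17 percent lower and 4.69 percent higher). These were the dehydrogenases Acadvl and Acads, the hydratase Echs1, the trifunctional protein subunit Hadhb, the electron carriers Etfa and Etfb, and the peroxisomal enzymes Ehhadh and Decr2. In shKAT2B over shNS, 6 members fell and 0 rose, against 15.6 percent of all genes called (8.95 percent lower and 6.66 percent higher). These were Hadh, Hadhb, Etfa, Etfb, the peroxisomal oxidase Acox2 and the pantetheinase Vnn1. The median difference was -0.17 for shWDR5 and -0.15 for shKAT2B over the members, against -0.01 and 0.01 over all genes tested. By class, 6 of 19 mitochondrial members fell in shWDR5 and 4 in shKAT2B, 2 and 1 of 7 peroxisomal members, and 0 and 1 of 4 PPARA-responsive ones. Hadhb, Etfa and Etfb were called in both arms, which share the shNS libraries. The share of all genes called in both is not given here, so this overlap cannot be read as particular to the members.

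Calls were made at an adjusted p below 0.05 in limma (Benjamini-Hochberg over 11480 genes). With the library set as a term, 15 members fell and 3 rose in shWDR5 (18 and 18.8 percent of all genes) and 12 fell and 3 rose in shKAT2B (20.1 and 21.5 percent). With the letters as a replicate block 15 members were called in shWDR5 (26.7 percent of all genes) and 12 in shKAT2B (29.6 percent). The counts hung on single libraries. In shWDR5 they came to 0 without shNS glucagon A or without shWDR5 glucagon B, 1 without shWDR5 PBS A, 3 without shNS PBS A, shNS PBS B or shKAT2B PBS A, and 4 without shNS glucagon B. In shKAT2B they came to 1 without shKAT2B PBS A, 2 without shKAT2B glucagon B, 3 without shWDR5 PBS A or any 1 shNS library, and 9 at most. The share of all genes called without each library is not given here, so these changes cannot be read as particular to the members.

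**Figure D1:**
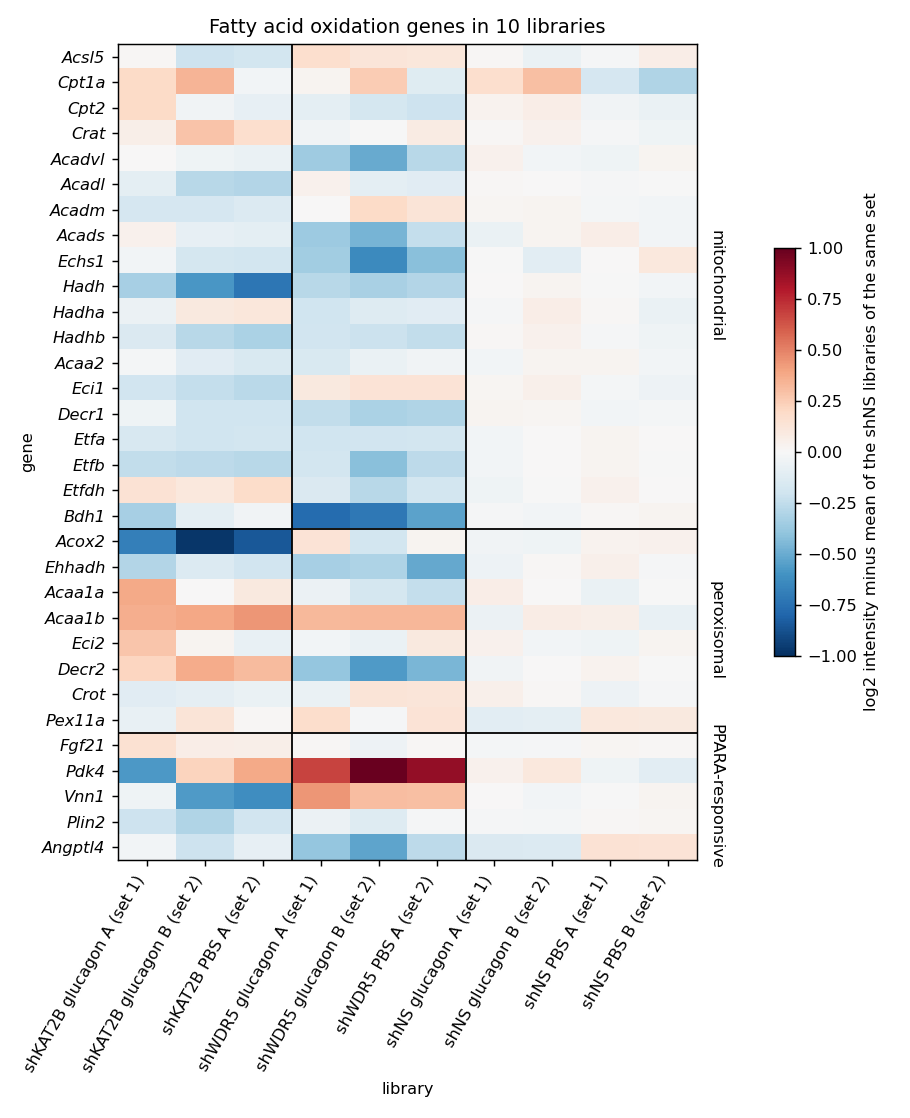
Level of the 32 measured members (rows, by class) in the 10 libraries (columns), as log2 intensity minus the mean of the shNS libraries of the same library set. Acox2 is the lowest row in the shKAT2B columns, Pdk4 is highest in the shWDR5 columns, and Acadvl, Echs1, Bdh1 and Decr2 are among the many rows below 0 in all 3 shWDR5 columns.

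**Figure D2:**
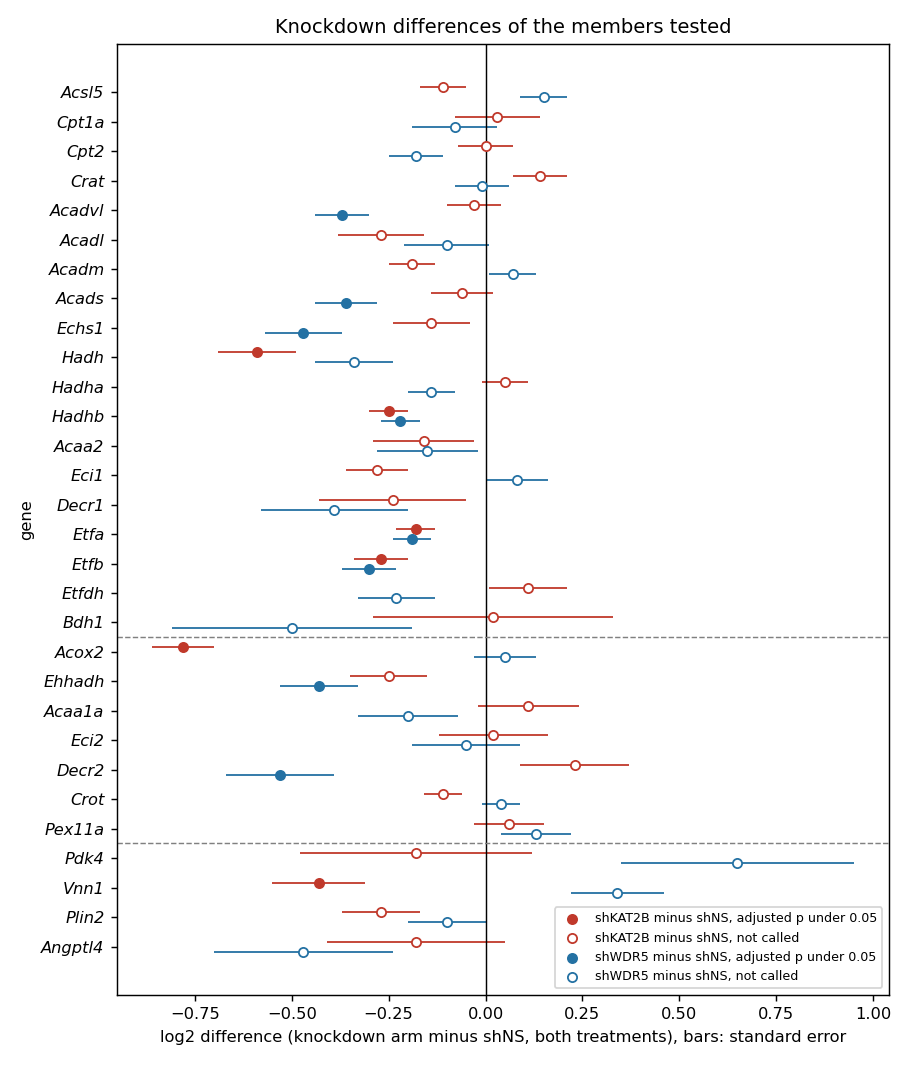
Log2 difference from shNS over both treatments for the 30 members tested, shKAT2B in red and shWDR5 in blue, with bars of 1 standard error and filled points where the adjusted p was below 0.05. The fit is that of arm and treatment alone, and all its filled points, 6 for shKAT2B and 8 for shWDR5, lie left of 0.

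Fatty acids enter oxidation as acyl-CoA and cross into mitochondria on carnitine. Cpt1a encodes the carnitine palmitoyltransferase of the outer membrane, the controlled step of that entry. It measured 12.19 and 11.98 in shKAT2B glucagon and 11.61 in shKAT2B PBS, 12.03 and 11.89 in shWDR5 glucagon and 11.52 in shWDR5 PBS, and 12.17 and 11.94 in shNS glucagon against 11.83 and 11.34 in shNS PBS. In every arm each glucagon library lay above each PBS library, and the arms overlapped each other. Glucagon over PBS was 0.46 ± 0.10 over the arms, the highest difference among the members, and did not pass (adjusted p = 0.0874, limma), but it passed without shNS PBS A (0.54 ± 0.08, adjusted p = 0.0278) and with median-centred libraries (adjusted p = 0.0467). With the library set as a term it was 0.39 ± 0.05 and passed (adjusted p = 0.000382), and it was 0.34 in the first set (shNS) and 0.37, 0.37 and 0.60 in the shKAT2B, shWDR5 and shNS arms of the second. In shNS alone, with the letters as a replicate block over the 4 groups that hold both, Cpt1a was 0.47 ± 0.07 higher with glucagon (adjusted p = 0.00507). Neither knockdown difference passed the test, at 0.03 ± 0.11 for shKAT2B and -0.08 ± 0.11 for shWDR5.

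The core motif of nuclear receptors, AGGTCA, lay in the 250 bases before the start of Cpt1a, Acadvl and Echs1 (RefSeq, GRCm38.p6). These windows are shown because Cpt1a is the entry step that stood highest with glucagon, and Acadvl and Echs1 fell in shWDR5. The motif is in capitals, on either strand; Cpt1a spans chr19:3323051-3323300 (+), Acadvl chr11:70015429-70015678 (-) and Echs1 chr7:140116422-140116671 (-), each printed 5′ to 3′ on its gene's strand.
Cpt1a: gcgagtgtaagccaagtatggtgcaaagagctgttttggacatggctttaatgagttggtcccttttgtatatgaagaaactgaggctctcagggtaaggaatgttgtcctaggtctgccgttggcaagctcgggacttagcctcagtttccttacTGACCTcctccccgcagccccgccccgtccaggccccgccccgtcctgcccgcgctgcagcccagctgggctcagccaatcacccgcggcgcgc
Acadvl: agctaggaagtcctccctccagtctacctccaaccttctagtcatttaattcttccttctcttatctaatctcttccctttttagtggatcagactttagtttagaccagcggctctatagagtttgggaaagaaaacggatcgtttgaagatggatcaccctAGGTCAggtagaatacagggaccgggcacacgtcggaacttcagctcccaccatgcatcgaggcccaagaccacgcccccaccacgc
Echs1: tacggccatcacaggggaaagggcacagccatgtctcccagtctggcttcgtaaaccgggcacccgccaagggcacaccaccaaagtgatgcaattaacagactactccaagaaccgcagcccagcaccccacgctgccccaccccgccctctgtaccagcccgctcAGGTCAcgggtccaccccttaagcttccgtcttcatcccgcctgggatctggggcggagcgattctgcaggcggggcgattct

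Of the 27 members with a promoter window, 5 held AGGTCA on either strand (Acadm, Acadvl, Cpt1a, Echs1 and Plin2), against 14.0 percent of all 32851 windows of the same length. The DR1 element, that motif repeated after 1 base, was found in 0 members and 0.03 percent of all windows. The short cyclic AMP motif TGACG was in 6 members (Acadm, Acox2, Ehhadh, Etfa, Etfdh and Fgf21), against 17.8 percent, and the full site TGACGTCA, which contains it, in 0, against 1.5 percent. These letters describe the windows and do not show binding.

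Among the other entry genes none was called against shNS in the fit of arm and treatment alone. Acsl5, a synthetase that joins long-chain fatty acids to CoA, measured 11.58 and 11.45 in shKAT2B glucagon and 11.47 in shKAT2B PBS, 11.73 and 11.78 in shWDR5 glucagon and 11.77 in shWDR5 PBS, and 11.58 and 11.59 in shNS glucagon against 11.55 and 11.72 in shNS PBS. The shKAT2B libraries all lay below the shWDR5 libraries, with a difference of -0.26 ± 0.06 (adjusted p = 0.0157). Neither arm was called against shNS, but shWDR5 was higher with the library set as a term (0.15 ± 0.05, adjusted p = 0.035). The call between the knockdowns was lost without shWDR5 PBS A, shWDR5 glucagon B, shKAT2B PBS A (adjusted p = 0.0818, the highest) or shKAT2B glucagon B. Cpt2, which rebuilds acyl-CoA inside mitochondria, stood at 0.00 ± 0.07 in shKAT2B and -0.18 ± 0.07 in shWDR5, and Crat, the acetyl-carnitine enzyme, at 0.14 ± 0.07 and -0.01 ± 0.07, none of which passed. Cpt2 in shWDR5 passed with the replicate block (-0.20 ± 0.06, adjusted p = 0.0353) and with the library set as a term (-0.16 ± 0.05, adjusted p = 0.0287). Crat in shKAT2B passed with the library set as a term (0.15 ± 0.05, adjusted p = 0.0392).

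The first oxidation step is divided by chain length among Acadvl, Acadl, Acadm and Acads. Acadvl, the very long-chain enzyme, measured 9.02 and 8.97 in shKAT2B glucagon and 8.95 in shKAT2B PBS, 8.66 and 8.51 in shWDR5 glucagon and 8.74 in shWDR5 PBS, and 9.06 and 8.99 in shNS glucagon against 8.97 and 9.04 in shNS PBS. All 3 shWDR5 libraries lay below all others, at -0.37 ± 0.07 against shNS (adjusted p = 0.016) and -0.40, -0.48 and -0.30 within the sets. Acads, the short-chain enzyme, measured 11.22 and 11.01 in shKAT2B glucagon and 11.00 in shKAT2B PBS, 10.82 and 10.63 in shWDR5 glucagon and 10.86 in shWDR5 PBS, and 11.11 and 11.12 in shNS glucagon against 11.25 and 11.07 in shNS PBS. It too was below every other library in shWDR5, at -0.36 ± 0.08 (adjusted p = 0.0268). Both were higher in shKAT2B than in shWDR5, Acadvl by 0.34 ± 0.08 (adjusted p = 0.014) whichever library was left out, and Acads by 0.31 ± 0.09 (adjusted p = 0.0356).

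Single libraries again decided some of these calls. In shWDR5 over shNS, Acadvl was lost without shNS glucagon A (adjusted p = 0.0688) or shWDR5 glucagon B, and Acads without shWDR5 glucagon B (adjusted p = 0.0911, the highest), shWDR5 PBS A, either shNS glucagon library or shNS PBS A. Between the knockdowns, Acads was lost without shNS glucagon A, any 1 of the shWDR5 libraries or either shKAT2B glucagon library (adjusted p = 0.12 at most). Medium chains had another pattern. Acadm measured 11.64 and 11.48 in shKAT2B glucagon and 11.51 in shKAT2B PBS, 11.81 and 11.84 in shWDR5 glucagon and 11.77 in shWDR5 PBS, and 11.83 and 11.67 in shNS glucagon against 11.79 and 11.62 in shNS PBS. It was lower in shKAT2B than in shWDR5, at -0.26 ± 0.07 (adjusted p = 0.0233), a call lost without shWDR5 PBS A, shWDR5 glucagon B, shKAT2B PBS A or shKAT2B glucagon B (adjusted p = 0.0895, the highest). Against shNS it stood at -0.19 ± 0.06 in shKAT2B and 0.07 ± 0.06 in shWDR5, and Acadl, the long-chain enzyme, at -0.27 ± 0.11 and -0.10 ± 0.11, none past the test. In shKAT2B both fell with the replicate block, Acadm by 0.22 ± 0.05 (adjusted p = 0.0109) and Acadl by 0.31 ± 0.07 (adjusted p = 0.00999), and with the library set as a term, by 0.17 ± 0.04 (adjusted p = 0.00809) and 0.21 ± 0.05 (adjusted p = 0.00254).

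The mitochondrial genes with the lowest called differences lay in the middle of the spiral. Echs1, the short-chain enoyl-CoA hydratase, measured 11.13 and 10.91 in shKAT2B glucagon and 10.90 in shKAT2B PBS, 10.81 and 10.45 in shWDR5 glucagon and 10.67 in shWDR5 PBS, and 11.15 and 10.98 in shNS glucagon against 11.16 and 11.19 in shNS PBS. The shWDR5 libraries lay below all others, at -0.47 ± 0.10 against shNS (adjusted p = 0.0205), a call lost without shWDR5 PBS A (adjusted p = 0.107, the highest), shWDR5 glucagon B, shNS glucagon A or shNS PBS B. Hadh, the dehydrogenase that follows it, measured 12.16 and 11.80 in shKAT2B glucagon and 11.66 in shKAT2B PBS, 12.22 and 12.06 in shWDR5 glucagon and 12.09 in shWDR5 PBS, and 12.50 and 12.41 in shNS glucagon against 12.49 and 12.36 in shNS PBS. Every knockdown library lay below every shNS library. The difference was -0.59 ± 0.10 in shKAT2B (adjusted p = 0.00482), lost only without shKAT2B PBS A (adjusted p = 0.0516), and -0.34 ± 0.10 in shWDR5, which did not pass (adjusted p = 0.061) and passed with the library set as a term (-0.29 ± 0.06, adjusted p = 0.00162).

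Hadhb encodes the thiolase-bearing beta subunit of the trifunctional protein, which handles long chains in complex with the alpha subunit from Hadha. Hadhb measured 10.55 and 10.46 in shKAT2B glucagon and 10.42 in shKAT2B PBS, 10.50 and 10.52 in shWDR5 glucagon and 10.49 in shWDR5 PBS, and 10.71 and 10.78 in shNS glucagon against 10.68 and 10.69 in shNS PBS. All 6 knockdown libraries lay below all 4 shNS libraries. The fall was -0.25 ± 0.05 in shKAT2B (adjusted p = 0.0122) and -0.22 ± 0.05 in shWDR5 (adjusted p = 0.0282). Hadha, its partner, stood at 0.05 ± 0.06 in shKAT2B (adjusted p = 0.63) and -0.14 ± 0.06 in shWDR5 (adjusted p = 0.174). Hadha fell in shWDR5 with the library set as a term too, at -0.16 ± 0.05 (adjusted p = 0.0194), and so it did under glucagon with the replicate block over the 4 groups with both letters, at -0.19 ± 0.06 (adjusted p = 0.0466). The difference between the subunits was not tested. Hadhb has another feature, which gave 10.49, 10.38 and 10.34 in the shKAT2B libraries, 10.44, 10.46 and 10.43 in the shWDR5 libraries and 10.60 to 10.72 in the shNS libraries. Whether either feature also reads related loci was not tested. In shKAT2B the call was lost without shKAT2B PBS A (adjusted p = 0.102) or shKAT2B glucagon B, and in shWDR5 without any 1 library other than the shKAT2B glucagon pair (adjusted p = 0.119 at most, without shWDR5 PBS A) and with median-centred libraries (adjusted p = 0.0523).

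Both genes start head to head, 273 bases apart, and their 250-base upstream windows share 228 bases. The window of Hadhb, chr5:30155003-30155252 on the + strand of GRCm38.p6 (RefSeq), is shown 5′ to 3′ because both subunits of the trifunctional protein are read outward from this shared stretch. Capitals mark 2 GC boxes, GGGCGG, a motif found on either strand in 15 of the 27 members with a window and in 32.7 percent of all windows.
Hadhb: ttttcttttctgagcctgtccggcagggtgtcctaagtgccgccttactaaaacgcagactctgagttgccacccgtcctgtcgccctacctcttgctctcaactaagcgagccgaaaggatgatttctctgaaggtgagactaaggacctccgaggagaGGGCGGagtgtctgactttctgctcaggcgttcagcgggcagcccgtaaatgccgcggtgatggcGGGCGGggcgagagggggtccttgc

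Of the genes for thiolysis and for double bonds, Eci1 and Decr1 were called against shNS only under other fits than that of arm and treatment alone. Acaa2, the mitochondrial thiolase, stood at -0.16 ± 0.13 in shKAT2B and -0.15 ± 0.13 in shWDR5, neither past the test. Eci1, the isomerase for unsaturated chains, measured 9.71 and 9.49 in shKAT2B glucagon and 9.46 in shKAT2B PBS, 10.00 and 9.87 in shWDR5 glucagon and 9.87 in shWDR5 PBS, and 9.92 and 9.78 in shNS glucagon against 9.88 and 9.68 in shNS PBS. The shKAT2B libraries lay below the shWDR5 libraries, at -0.36 ± 0.09 (adjusted p = 0.0184), a call lost without shWDR5 PBS A, shWDR5 glucagon A, shKAT2B PBS A (adjusted p = 0.0848, the highest) or shKAT2B glucagon B, and they overlapped the shNS libraries. Within the library sets shKAT2B stood at -0.21, -0.29 and -0.22 against shNS, and that difference passed with the replicate block (-0.31 ± 0.06, adjusted p = 0.00387), with the library set as a term (-0.24 ± 0.05, adjusted p = 0.00161) and with median-centred libraries (adjusted p = 0.0143). Decr1, the mitochondrial dienoyl-CoA reductase, was -0.24 ± 0.19 in shKAT2B and -0.39 ± 0.19 in shWDR5 (adjusted p = 0.437 and 0.23) and differed between the library sets by more than that, at -0.47. With the set as a term it fell in both, by 0.14 ± 0.05 in shKAT2B (adjusted p = 0.0281) and by 0.29 ± 0.05 in shWDR5 (adjusted p = 0.00051).

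Electrons from the dehydrogenases pass through the flavoprotein made of Etfa and Etfb to the enzyme from Etfdh, which hands them to ubiquinone. Etfa measured 10.51 to 10.56 in shKAT2B and 10.52 to 10.53 in shWDR5 libraries, against 10.69 to 10.75 in shNS libraries. Etfb measured 11.81 to 11.90 in shKAT2B and 11.67 to 11.96 in shWDR5 libraries, against 12.08 to 12.17 in shNS libraries. Neither gene overlapped between knockdown and control libraries. Etfa fell by 0.18 ± 0.05 in shKAT2B (adjusted p = 0.0342) and by 0.19 ± 0.05 in shWDR5 (adjusted p = 0.0373), and Etfb by 0.27 ± 0.07 (adjusted p = 0.0284) and by 0.30 ± 0.07 (adjusted p = 0.0276). All 4 calls were lost without any 1 of the 4 shNS libraries, either lone PBS library of the knockdown arms or the B glucagon library of the arm tested (adjusted p = 0.198 at most, for Etfa in shKAT2B without shKAT2B PBS A). Etfa in shWDR5 was lost without shWDR5 glucagon A or shKAT2B glucagon B too. Etfdh stood at 0.11 ± 0.10 in shKAT2B and -0.23 ± 0.10 in shWDR5 over shNS, neither past the test, and at 0.35 ± 0.10 in shKAT2B over shWDR5 (adjusted p = 0.0392). It was called in opposite directions with the library set as a term, at 0.16 ± 0.04 in shKAT2B (adjusted p = 0.0108) and -0.19 ± 0.04 in shWDR5 (adjusted p = 0.00583), and the replicate block called it in shWDR5 alone (-0.27 ± 0.06, adjusted p = 0.011).

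Ketone body genes gave no call against shNS in the fit of arm and treatment alone. Bdh1, which converts acetoacetate to beta-hydroxybutyrate, measured 7.36 and 8.31 in shKAT2B glucagon and 8.37 in shKAT2B PBS, 6.92 and 7.69 in shWDR5 glucagon and 7.87 in shWDR5 PBS, and 7.68 and 8.38 in shNS glucagon against 7.70 and 8.43 in shNS PBS. The library sets were further apart than the arms, with the first set low. In shWDR5 it was -0.50 ± 0.31 over shNS (adjusted p = 0.358), and with the set as a term -0.67 ± 0.07 (adjusted p = 1.24e-05), at -0.76, -0.70 and -0.57 within the sets. In shKAT2B it was 0.02 ± 0.31, and -0.15 ± 0.07 with the set as a term (adjusted p = 0.97 and 0.0947). With the letters as a block over all 10 libraries Bdh1 was called in both interactions of knockdown and glucagon, at -0.90 ± 0.15 for shKAT2B (adjusted p = 0.00698) and -0.92 ± 0.15 for shWDR5 (adjusted p = 0.0108), and with the set as a term in neither. Of the 4 other ketone body genes tested, the fit of arm and treatment alone called 0 in either knockdown. With the set as a term, in shKAT2B, Bdh2 fell by 0.32 ± 0.06 (adjusted p = 0.000715) and Oxct1, the transferase that activates acetoacetate for use, rose by 0.23 ± 0.07 (adjusted p = 0.0242). Oxct1 measured 8.93 to 9.12 in the first set and 9.34 to 9.92 in the second, where the summed Kupffer cell and leukocyte markers were higher too. Which cells of the cultures carried its RNA was not tested.

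**Figure D3:**
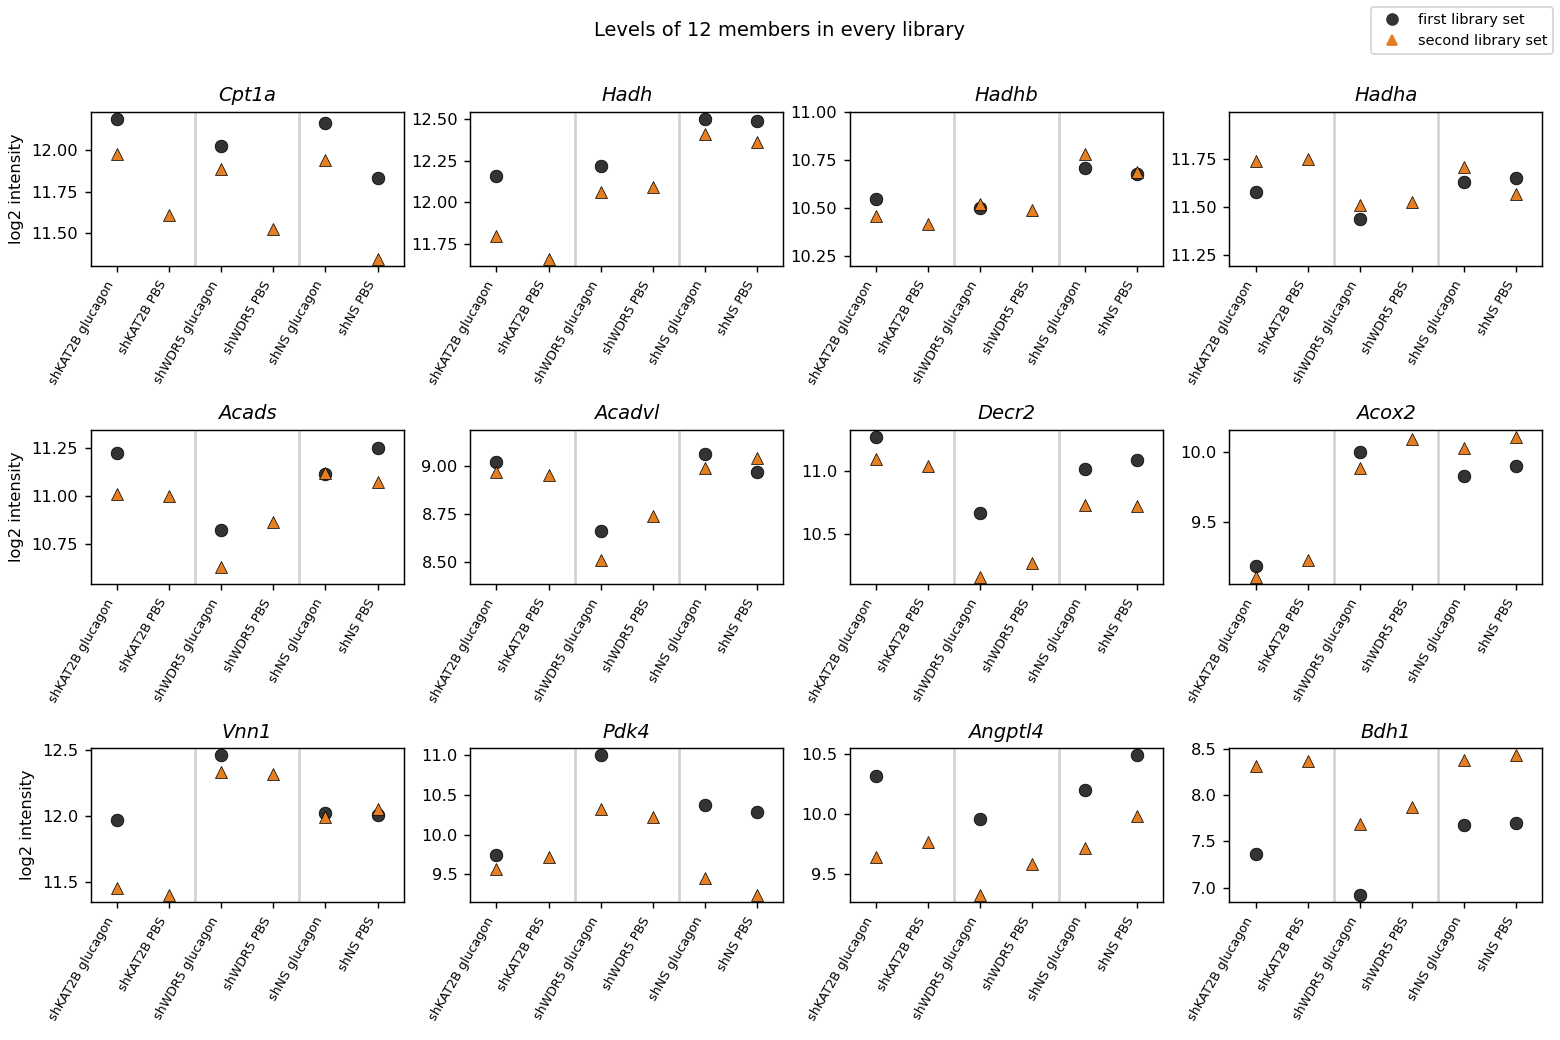
Log2 intensity of 12 members in every library, by group on the x axis, with circles for the first library set and triangles for the second (each panel has its own y axis). Acadvl, Acads and Decr2 are lowest in the shWDR5 groups within each set, Acox2 is lowest in both shKAT2B groups, and Bdh1, Pdk4 and Angptl4 differ between the sets within a group.

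The peroxisomal genes Acox2 and Decr2 had the largest called differences between the knockdowns among the members. Acox2, an oxidase for bile acid intermediates, measured 9.18 and 9.10 in shKAT2B glucagon and 9.22 in shKAT2B PBS, 10.00 and 9.89 in shWDR5 glucagon and 10.10 in shWDR5 PBS, and 9.83 and 10.03 in shNS glucagon against 9.90 and 10.11 in shNS PBS. The 3 shKAT2B libraries lay far below the other 7, at -0.78 ± 0.08 against shNS (adjusted p = 0.000522) and -0.83 ± 0.08 against shWDR5 (adjusted p = 0.000334), whichever library was left out. Decr2, the peroxisomal dienoyl-CoA reductase, went the other way. It measured 11.27 and 11.10 in shKAT2B glucagon and 11.04 in shKAT2B PBS, 10.67 and 10.16 in shWDR5 glucagon and 10.27 in shWDR5 PBS, and 11.02 and 10.73 in shNS glucagon against 11.09 and 10.72 in shNS PBS. It was 0.77 ± 0.15 higher in shKAT2B than in shWDR5 (adjusted p = 0.00638), whichever library was left out.

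Against shNS, Decr2 fell by 0.53 ± 0.14 in shWDR5 (adjusted p = 0.0431), the lowest member there in this fit, and stood at 0.23 ± 0.14 in shKAT2B (adjusted p = 0.316), the highest member there, or 0.31 ± 0.06 with the library set as a term (adjusted p = 0.000678). With that term Bdh1 was lower than Decr2 in shWDR5, at -0.67 against -0.46, and in the second set alone at -0.63 against -0.51. The call in shWDR5 held only without shNS glucagon B, shWDR5 glucagon A or shKAT2B glucagon A (adjusted p = 0.214 without shWDR5 PBS A), and was lost with no filter on low values (adjusted p = 0.0516). Ehhadh, the peroxisomal bifunctional enzyme, measured 8.49 and 8.46 in shKAT2B glucagon and 8.40 in shKAT2B PBS, 8.45 and 8.29 in shWDR5 glucagon and 8.08 in shWDR5 PBS, and 8.73 and 8.61 in shNS glucagon against 8.83 and 8.58 in shNS PBS. All knockdown libraries lay below all shNS libraries. The fall of 0.43 ± 0.10 in shWDR5 passed (adjusted p = 0.0264) and the difference of -0.25 ± 0.10 in shKAT2B did not (adjusted p = 0.127), though it did with the replicate block (-0.27 ± 0.09, adjusted p = 0.0463) and with the library set as a term (-0.22 ± 0.07, adjusted p = 0.0241). The call in shWDR5 was lost without shNS glucagon A, shWDR5 PBS A (adjusted p = 0.189, the highest), shWDR5 glucagon B or shKAT2B PBS A.

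The other peroxisomal members were not called in the fit of arm and treatment alone. Acaa1a, a thiolase, differed from shNS by 0.11 ± 0.13 in shKAT2B and -0.20 ± 0.13 in shWDR5, the isomerase gene Eci2 by 0.02 ± 0.14 and -0.05 ± 0.14, Crot, which makes medium-chain acyl-carnitines, by -0.11 ± 0.05 and 0.04 ± 0.05, and Pex11a, a factor of peroxisome division, by 0.06 ± 0.09 and 0.13 ± 0.09. Between the knockdowns Acaa1a was higher and Crot lower in shKAT2B with the replicate block, at 0.31 ± 0.10 (adjusted p = 0.0282) and -0.15 ± 0.05 (adjusted p = 0.0466), and both passed with the library set as a term (adjusted p = 0.00335 and 0.0176). Eci2 was called in the interaction of shKAT2B and glucagon with the block alone (0.46 ± 0.13, adjusted p = 0.0399). Its glucagon difference within the sets was 0.10 in shKAT2B and 0.09 and -0.05 in shNS. Acaa1b, the close relative of Acaa1a, had a mean of 6.56, which was below the filter, and was not tested. It measured 6.55 to 6.96 in shKAT2B, 6.50 to 6.92 in shWDR5 and 6.09 to 6.65 in shNS libraries, and within the library sets every knockdown library was above its shNS library, by 0.31 to 0.52 in shKAT2B and 0.26 to 0.40 in shWDR5. Whether probes of the Acaa1 pair read each other's transcript was not tested.

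Differences of the PPARA-responsive genes from shNS had both signs. Vnn1, a pantetheinase, measured 11.97 and 11.45 in shKAT2B glucagon and 11.40 in shKAT2B PBS, 12.46 and 12.33 in shWDR5 glucagon and 12.32 in shWDR5 PBS, and 12.02 and 11.99 in shNS glucagon against 12.01 and 12.05 in shNS PBS. The shKAT2B libraries lay below and the shWDR5 libraries above the narrow range of the shNS libraries. It was lower in shKAT2B than in shWDR5, at -0.76 ± 0.12 (adjusted p = 0.00287), whichever library was left out. Against shNS it fell by 0.43 ± 0.12 in shKAT2B (adjusted p = 0.0389), a call lost without any 1 library other than shKAT2B glucagon A (adjusted p = 0.266 at most, without shKAT2B PBS A). In the first library set the shKAT2B difference was -0.05, against -0.54 and -0.65 in the second. In shWDR5 it was 0.34 ± 0.12 (adjusted p = 0.109) and passed with the library set as a term, at 0.37 ± 0.08 (adjusted p = 0.00382).

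Pdk4 encodes the kinase that keeps pyruvate out of the citric acid cycle. It measured 9.75 and 9.57 in shKAT2B glucagon and 9.72 in shKAT2B PBS, 11.00 and 10.33 in shWDR5 glucagon and 10.22 in shWDR5 PBS, and 10.37 and 9.45 in shNS glucagon against 10.28 and 9.24 in shNS PBS. Within each library set the shWDR5 libraries were the highest, and over all libraries they overlapped the shNS libraries. The shWDR5 difference of 0.65 ± 0.30 was the highest among the members and did not pass (adjusted p = 0.204), and with the set as a term it was 0.79 ± 0.14 (adjusted p = 0.000702), at 0.63, 0.88 and 0.98 within the sets. For shKAT2B the within-set values had opposite signs, at -0.62 in the first set and 0.12 and 0.48 in the second. Pdk4 was the lowest member in shKAT2B over shWDR5, at -0.84 ± 0.31 (adjusted p = 0.0864), a difference that passed with the replicate block (adjusted p = 0.00313), with the library set as a term (adjusted p = 0.000337) and in the second set alone (-0.63 ± 0.08, adjusted p = 0.000149).

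Plin2, the coat protein of lipid droplets, was -0.27 ± 0.10 in shKAT2B and -0.10 ± 0.10 in shWDR5 over shNS, and Angptl4, a secreted inhibitor of lipoprotein lipase, -0.18 ± 0.23 and -0.47 ± 0.23, none past the test. With the library set as a term Plin2 fell by 0.21 ± 0.03 in shKAT2B (adjusted p = 0.000138) and Angptl4 fell by 0.34 ± 0.06 in shWDR5 (adjusted p = 0.000718). The replicate block called Plin2 in both arms, at -0.32 ± 0.05 in shKAT2B (adjusted p = 0.00124) and -0.16 ± 0.05 in shWDR5 (adjusted p = 0.048), and Angptl4 in shWDR5 (-0.57 ± 0.14, adjusted p = 0.0151). Within the sets Plin2 differed from shNS by -0.19, -0.28 and -0.21 in shKAT2B and by -0.04, -0.11 and -0.03 in shWDR5. Fgf21, a fasting hormone of the liver, had a mean of 6.51, was below the filter and ranged from 6.36 to 6.62 over the 10 libraries.

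Between the knockdowns, 9 of the 30 members tested were called, 4 higher and 5 lower in shKAT2B than in shWDR5, against 22.7 percent of all genes, 11.2 percent higher and 11.5 percent lower. The higher ones were Acadvl, Acads, Etfdh and Decr2, and the lower ones Acsl5, Acadm, Eci1, Acox2 and Vnn1. With the library set as a term 12 were higher and 10 lower (25.9 and 24.6 percent of all genes), and with the replicate block 18 were called (36.1 percent). The count of 9 came to 4 without shWDR5 PBS A or shKAT2B glucagon B and to 5 without shWDR5 glucagon B or shKAT2B PBS A. Shares of all genes without those libraries are not given here. The call of Etfdh held only without shWDR5 glucagon A, shNS PBS A or shNS glucagon B (adjusted p = 0.149 at most, without shWDR5 PBS A).

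Cpt1a was the only member whose glucagon difference passed under several fits. In the fit of arm and treatment alone 0 of 30 members were called, against 0.923 percent of all genes, 0.679 percent higher and 0.244 percent lower (limma), and 1 member had an unadjusted p below 0.05. The members' median was 0.04, against 0.01 for all genes tested. The lowest was Bdh1 at -0.33 ± 0.26, which was -0.10 ± 0.06 with the library set as a term. The replicate block over all 10 libraries called Cpt1a, at 0.53 ± 0.06 (adjusted p = 0.000504). The library set as a term gave 2 calls (1.93 percent of all genes higher and 1.43 percent lower), Cpt1a higher as above and Angptl4 lower at -0.21 ± 0.05 (adjusted p = 0.0423). Angptl4 measured 10.32 and 9.64 in shKAT2B glucagon and 9.76 in shKAT2B PBS, 9.96 and 9.32 in shWDR5 glucagon and 9.58 in shWDR5 PBS, and 10.20 and 9.71 in shNS glucagon against 10.49 and 9.98 in shNS PBS. Within the sets the glucagon library was lower each time, at -0.12 in shKAT2B, -0.26 in shWDR5 and -0.29 and -0.27 in shNS.

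Within shNS alone 0 members were called for glucagon (0.192 percent of all genes), 1 had an unadjusted p below 0.05, and the replicate block over the 4 groups with both letters gave 1, Cpt1a (1.95 percent of all genes). Under glucagon 0 members were called for shWDR5 (0.0523 percent of all genes, 7 members with an unadjusted p below 0.05), and 14 with that block, 2 higher and 12 lower (11.3 and 12.4 percent of all genes). For shKAT2B under glucagon 1 was called (1.34 percent of all genes), Acox2 at -0.79 (adjusted p = 0.0384), and 9 with the block, 1 higher and 8 lower (13.5 and 13.7 percent). The Acox2 call of the unblocked fit was lost without any 1 library other than shKAT2B PBS A and shWDR5 PBS A, up to an adjusted p of 0.28 without shNS glucagon B. Tests of whether either knockdown changed the glucagon response called 0 members and 0 percent of all genes in either arm (limma), and 0 members had an unadjusted p below 0.05. Nr4a1, whose rise within the second set was smaller in shKAT2B than in shNS, was not called either. A count of 0 in these tests therefore does not show an unchanged response. With the library set as a term 0 members were called in both (0.0174 percent of all genes for shKAT2B and 0 percent for shWDR5), and with the letters as a block over all 10 libraries 6 for shKAT2B (12 percent of all genes) and 2 for shWDR5 (4.75 percent). The block counts each lone PBS library with the A libraries, though these lone libraries fell in the second set, so its interactions also carry the difference between the sets.

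Other genes of the pathway were called at further steps. Of 93 tested, glucagon raised 3 (3.23 percent, against 0.679 percent of all genes) and lowered 0, namely Ppargc1a, the fatty acid transporter and very long-chain acyl-CoA synthetase gene Slc27a2 by 0.59 ± 0.10 (adjusted p = 0.0244) and the deacetylase gene Sirt1 by 0.42 ± 0.07 (adjusted p = 0.0318). In shNS alone 1 was called, Ppargc1a, and with the replicate block over the 4 groups with both letters 6 rose, these 3 and the transporter gene Slc16a6 by 0.78 ± 0.10 (adjusted p = 0.000761), Lpin1 by 0.46 ± 0.08 (adjusted p = 0.0072) and Hnf4a by 0.34 ± 0.06 (adjusted p = 0.0154). In shKAT2B 3 rose and 11 fell, 15.1 percent in all and near the 15.6 percent of all genes, with the smallest p for Prkaa2, a catalytic subunit of AMP-activated protein kinase, at -0.95 ± 0.08 (adjusted p = 0.000271). Slc27a2 fell there by 0.69 ± 0.11 and Amacr, the racemase that prepares branched chains and bile acid intermediates for peroxisomal oxidation, by 0.45 ± 0.07. The thioesterase genes Acot12 and Acot13 and the CoA hydrolase gene Nudt19 fell by 0.38 ± 0.07, 0.26 ± 0.05 and 0.38 ± 0.07. In shWDR5 1 rose and 12 fell, 1.08 and 12.9 percent, against 4.69 and 6.17 percent of all genes. The peroxisomal CoA hydrolase gene Nudt7 fell by 0.66 ± 0.10, Acot12 by 0.41 ± 0.07, the propionyl-CoA carboxylase subunits Pcca and Pccb by 0.52 ± 0.09 and 0.42 ± 0.09, Echdc1, which removes ethylmalonyl-CoA, by 0.32 ± 0.06, and Pex19, a chaperone of peroxisomal membrane proteins, by 0.50 ± 0.10.

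Between the arms 12 of 93 were higher and 7 lower in shKAT2B than in shWDR5, 20.4 percent in all, against 22.7 percent of all genes. With the library set as a term 12 were higher and 36 lower in shKAT2B, 12.9 and 38.7 percent, against 21.5 and 20.1 percent of all genes. In shWDR5 4 were higher and 42 lower, 4.3 and 45.2 percent, against 18.8 and 18 percent. Between the arms 31 were higher and 15 lower, 33.3 and 16.1 percent, against 25.9 and 24.6 percent. For glucagon 6 were higher and 0 lower, 6.45 and 0 percent, against 1.93 and 1.43 percent. Without that term, between the arms, Amacr stood at -0.59 ± 0.08, beside Acox2 at -0.83 ± 0.08. Acox3, another peroxisomal oxidase, stood at 0.91 ± 0.14. Against shNS within the library sets, Acox3 went the opposite way to Acox2 in shKAT2B, at 0.57, 0.66 and 0.64. In shWDR5 it stood at -0.27, -0.37 and -0.21. Between the arms Prkaa2 was -0.65 ± 0.09, Ppargc1a -0.58 ± 0.09 and Acot13 -0.30 ± 0.05, and Creb3l3, a liver transcription factor that works with PPARA, was 1.01 ± 0.17. Ppara itself measured 7.23 to 7.41 in shKAT2B, 7.05 to 7.41 in shWDR5 and 7.10 to 7.50 in shNS libraries, which overlapped. Neither knockdown difference passed the test (0.08 ± 0.12 and -0.03 ± 0.12). Its level was close to the filter on low values (7.13), with shNS PBS A and B at 7.10 and shWDR5 glucagon A at 7.05. These values therefore do not show that Ppara was unchanged.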

How the data were processed

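The authors deposited linear intensity values for 26913 features of an Affymetrix mouse gene array. Per the submitters' processing notes it was made with Affymetrix Expression Console 1.1.1, and the sources used here do not give the normalization. Of the features, 17873 carried 1 gene symbol, 1128 several and 7912 none, and all 32 measured members matched a RefSeq gene by identifier. Values were log2(intensity + 1). Of 16401 genes, the 30 percent with the lowest mean (below 7.13) were set aside, and 11480 were tested, 30 of them members. Arrays carry no read depth, so precision rests on how many libraries there were.

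Differences were fitted on all genes with limma 3.58.1 in R 4.3.3 (lmFit, eBayes with a trend), with two-sided tests, Benjamini-Hochberg adjustment over the 11480 genes and calls at an adjusted p below 0.05. An additive model of arm and treatment (6 residual degrees of freedom) gave the glucagon and knockdown effects. A model of the 6 groups (4 residual degrees of freedom) gave those within shNS or under glucagon and the interactions. Groups with 1 library were assumed to vary like the others. Errors after ± are the model's standard errors. The library set is the sign of the first component of the additive model's residuals, so fits that contain it use the same libraries that defined it. Such a term lowers the residual spread by the way it was made. Adjusted p-values with the set as a term may therefore be too small, and counts of calls too high. Fits on the second set alone have 1 library per group. The deviations of same-lettered libraries from their group means correlated at 0.72 to 0.84 over the 6 pairs of the 4 groups with both letters, so the letters pair these groups, and blocked values are given where they change a call or a count. The 2 lone PBS libraries correlated over genes with the B glucagon library of their arm at 0.9958 (shKAT2B) and 0.9956 (shWDR5) and with the A library at 0.9757 and 0.9824, once the shNS glucagon effect was added (genes are not replicates). The letter block over all 10 libraries nevertheless counts them with the A libraries.

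Other settings tried were quantile normalization, centring each library on its median, stricter and no filters, averaging a gene's features, dropping the trend, a pseudocount of 16, the letter as a block, the library set as a term, the second set alone and leaving out each library. The block over the 4 groups with both letters was added after seeing the data. Values in every library are given for up to 12 called members, taken by smallest adjusted p in the additive comparisons, besides the highest and lowest member of each comparison. Up to 6 called genes of the further pathway lists are named per comparison by smallest p. Members with values in every library beyond this rule (Angptl4) and the genes Ppara, Bdh2, Oxct1, Slc16a6, Lpin1, Hnf4a, Krt7, Krt19, Alb, Trf, Asgr1 and Hpd were chosen after their values were seen. So were the within-set values of Acox3 and Nr4a1. The members, lists and tests were chosen with earlier results of these data known. Scripts were tested on simulated data. Python 3.11.15 with matplotlib 3.10.9, numpy 2.4.6 and pandas 2.3.3 served for tables and figures.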

Additional observations from a re-analysis of the deposited data

How the results depend on the processing

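Of 24 calls of members, 5 held whichever library was left out, namely Acox2 in shKAT2B over shNS and Acadvl, Acox2, Decr2 and Vnn1 between the knockdowns, 19 were lost without at least 1 library and 0 changed direction. Under the settings that keep all libraries 4 calls were lost, namely Decr2 in shWDR5 with no filter (adjusted p = 0.0516), Etfa in shWDR5 with no filter or median-centred libraries (0.0646 and 0.0537), Hadhb in shWDR5 with median-centred libraries (0.0523) and Etfa in shKAT2B with quantile normalization or no filter (0.0509 and 0.0597).

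The replicate block over all 10 libraries gave 12 called members for shKAT2B, 15 for shWDR5, 18 between the knockdowns, 1 for glucagon and 1 for glucagon in shNS. Under glucagon it gave 8 for shKAT2B and 14 for shWDR5, and for the interactions 6 and 2. Paired on the 4 groups with both letters, the counts were 9, 14 and 1 for shKAT2B and shWDR5 under glucagon and for glucagon in shNS. The library set as a term gave 15, 18, 22 and 2 for shKAT2B, shWDR5, between the knockdowns and glucagon, 8 and 14 for the knockdowns under glucagon and 1 for glucagon in shNS. The second set alone gave 15, 17, 21 and 1 in the first 4 of these. Median-centred libraries gave 10 for shKAT2B and 1 for glucagon. With each library left out in turn the counts were 1 to 9 for shKAT2B, 0 to 10 for shWDR5, 4 to 10 between the knockdowns, 0 to 1 for glucagon and 0 to 1 for shKAT2B under glucagon. The causes of these shifts were not tested. Shares of all genes are not given here for the second set alone, median-centred libraries or fits with a library left out. Those counts therefore cannot be read as particular to the members. Other settings kept the counts within 1.5 times. Precision was limited by 3 libraries in a knockdown arm and 4 in shNS.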
